A study of Mus musculus with 3 samples.

Results

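The 500 tallest open regions shared by all 3 monocyte libraries are the upper end of the DNase-seq signal in these cells. Peaks of the longer deposited list of each library were merged wherever they overlapped by 1 bp, which gave 63420 regions, and 33722 of these lay on autosomes and held a peak of every library. Each was scored by its lowest height over the 3 libraries, and the 500 with the highest score were kept, 1.48% of the shared autosomal regions. The regions were thus selected on peak height, and heights below describe them without testing anything.

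DNase I cuts DNA where chromatin is open, and sequencing of the cut ends gives a density of cleavage along the genome. Active promoters, above all those rich in CpG dinucleotides, carry some of the strongest cleavage in any cell type. A footprint is a short stretch inside an open region that is cut less than its surroundings, as happens where a protein covers the DNA. A tall peak can also come from a sequence present in several copies, since reads of copies that the reference genome lacks are placed on the copy it holds.

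The cells were primary monocytes of adult female mice of 2 months, strain B6CASTF1/J, the F1 hybrid of C57BL/6J and CAST/EiJ, with no treatment and no second group in the labels. The libraries were numbered as biological replicates 1, 2 and 4, each with 1 technical replicate, and 1 donor identifier was shared by all 3, so the spread between them may be technical. The longer lists held 54046, 42657 and 48980 peaks in replicates 1, 2 and 4. Read depth is unknown here, and so is the scale of the height, the signal that the authors gave each peak from its cleavage. Of 37 autosomal coding monocyte genes, 27 had a shared open region within 1000 bp of a start, beside 10817 of all 20698 autosomal coding genes (52.3%), and against 3 of 15 T cell genes, 4 of 14 B cell genes, 1 of 14 natural killer cell genes, 2 of 12 erythroid genes, 5 of 15 neutrophil granule genes, 3 of 14 megakaryocyte genes, 1 of 14 hepatocyte genes and 1 of 14 epithelial genes. Csf1r, Cd14 and Cx3cr1 were among the open monocyte genes, while Ccr2 and Ly6c2 had no shared region at a start.

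The sequences below stand for the kinds of region found among the 500, on the mm10 build. Capitals mark bases covered by a footprint in all 3 libraries. The first group shows regions whose sequence recurs in the genome, which include the tallest of all.
Rank 1, in an annotated ribosomal RNA pseudogene (chr17:39846781-39846900, plus strand): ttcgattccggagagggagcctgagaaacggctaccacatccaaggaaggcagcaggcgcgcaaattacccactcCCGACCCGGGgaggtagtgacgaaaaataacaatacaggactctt
Rank 5, intergenic (chr6:49236450-49236569, plus strand): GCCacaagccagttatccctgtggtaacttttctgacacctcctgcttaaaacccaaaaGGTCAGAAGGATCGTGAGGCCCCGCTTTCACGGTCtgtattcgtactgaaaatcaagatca
Rank 17, in an intron of Gphn (chr12:78350998-78351117, minus strand): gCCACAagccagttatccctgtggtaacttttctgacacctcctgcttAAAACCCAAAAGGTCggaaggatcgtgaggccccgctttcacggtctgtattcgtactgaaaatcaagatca
Rank 20, in an intron shared by Cmss1 and Filip1l (chr16:57391321-57391420, plus strand): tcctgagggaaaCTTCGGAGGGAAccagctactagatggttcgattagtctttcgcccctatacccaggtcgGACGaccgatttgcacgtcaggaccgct
Rank 8, in a tandem array at the start of chromosome 9 (chr9:3024438-3024557, plus strand): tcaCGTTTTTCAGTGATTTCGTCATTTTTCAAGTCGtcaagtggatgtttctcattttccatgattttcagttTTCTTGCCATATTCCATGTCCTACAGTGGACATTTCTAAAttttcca

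The second group shows single-copy promoters, the 4 tallest whose central 100 bp held no untranslated bases, each read along the strand of its gene. The last of them, rank 22, was intergenic and counted as a promoter by its distance to a start of Ctnna3. Its printed stretch begins inside the tRNA gene n-TStga3 of the other strand, and the region aligned to 14 other places.
Chd2, rank 15 (chr7:73537838-73537937, minus strand): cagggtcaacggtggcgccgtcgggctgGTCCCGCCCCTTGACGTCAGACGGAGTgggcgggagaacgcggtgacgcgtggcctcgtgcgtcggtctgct
Rad23b, rank 18 (chr4:55349851-55349950, plus strand): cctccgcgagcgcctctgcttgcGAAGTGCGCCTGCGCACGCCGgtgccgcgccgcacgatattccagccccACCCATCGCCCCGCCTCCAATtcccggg
Sde2, rank 19 (chr1:180850934-180851033, plus strand): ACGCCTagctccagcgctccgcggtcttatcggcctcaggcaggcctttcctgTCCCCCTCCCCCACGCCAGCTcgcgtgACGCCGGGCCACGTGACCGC
Ctnna3, rank 22 (chr10:63429538-63429637, plus strand): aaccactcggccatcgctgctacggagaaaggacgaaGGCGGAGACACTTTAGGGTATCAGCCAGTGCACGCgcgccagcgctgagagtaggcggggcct

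The third group shows tRNA genes that lay at members away from coding starts, read along the strand of the tRNA.
n-TNgtt14, rank 153 (chr5:149229001-149229074, minus strand): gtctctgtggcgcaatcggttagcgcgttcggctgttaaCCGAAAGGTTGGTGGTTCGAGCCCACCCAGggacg
n-TPagg4, rank 346 (chr14:51064814-51064885, minus strand): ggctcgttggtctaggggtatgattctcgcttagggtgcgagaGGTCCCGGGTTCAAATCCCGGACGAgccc

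Heights at the members ran far above the bulk of the open regions. In replicate 1 the lowest, median and highest member heights were 9.10, 12.1 and 112.7, against a median of 1.46 over all shared regions. In replicate 2 they were 9.05, 10.2 and 88.8, against a shared median of 1.19. In replicate 4 they were 9.46, 16.4 and 115.3, against a shared median of 1.66. Replicate 2 gave the lowest height, and so the score, at 487 of the 500, replicate 1 at 10 and replicate 4 at 3. The scores fell away steeply, with 11 regions above 20 and 402 below 12.

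The threshold passed through a run of ordinary promoters. Just inside it stood Sertad3, with heights of 9.81, 9.05 and 16.8 in replicates 1, 2 and 4, Dnajc3 with 9.75, 9.05 and 14.3, and Colgalt1 with 10.6, 9.05 and 9.46. Just outside stood Ankrd50 with 13.4, 9.04 and 14.7, Nfkb2 with 11.4, 9.03 and 13.7, and the pair Ranbp1 and Trmt2a with 9.48, 9.03 and 10.4. Nfkb2 encodes an NF-kappaB subunit and Ranbp1 a cofactor of the Ran GTPase. Membership turned on replicate 2, at this edge and over the whole list, since heights were not put on one scale before scoring. Of the 500 members, 498 were among the 500 tallest shared autosomal regions of replicate 2. The counts were 414 for replicate 1 and 398 for replicate 4.

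The same regions were tall in a library that took no part in choosing them. When replicates 1 and 2 chose 500 regions, all 500 had a peak in replicate 4, at a median height percentile of 99.5 and a lowest of 93.7, and 397 were as tall as its own 500 tallest peaks. When replicates 1 and 4 chose, the median percentile in replicate 2 was 99.4, the lowest 97.0, and 414 stood that high. When replicates 2 and 4 chose, the values in replicate 1 were 99.5, 97.6 and 414.

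**Figure D1:**
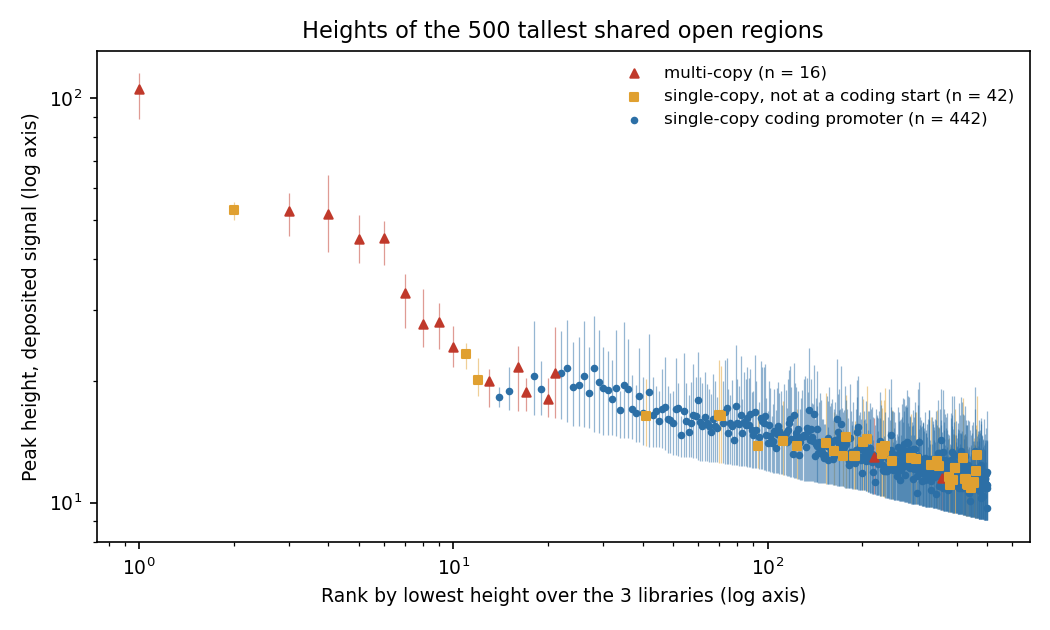
Peak height (deposited signal, log axis) against rank (log axis) for the 500 regions, with each point the mean of 3 libraries and each vertical line the range from the lowest to the highest library. Multi-copy regions (triangles, n = 16) fill most of the first 13 ranks, single-copy regions away from coding starts (squares, n = 42) include rank 2 at 53.1, 55.4 and 49.9, and the 442 single-copy promoters (circles) begin at rank 14.

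Coding promoters made up most of the 500. A region was called a promoter where it came within 1000 bp of the start of a protein-coding transcript in GENCODE M21, and 445 of the 500 were (89.0%), beside 40.8% of all shared autosomal regions. Among ranks 501 to 1000 the count was 464 (92.8%). The 500 tallest regions of each library taken alone held 447 ± 2.65 promoters (SD, n = 3 libraries). The share was not even along the ranks: 11 of the first 25 regions were promoters, 71 of the next 75, 134 of ranks 101 to 250 and 229 of ranks 251 to 500.

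Soft-masking, the mark of known repeats in the reference, was rare at the members. At 3 regions (0.6%) at least 50% of the bases were masked, beside 3.01% of all shared regions, and 315 members held no masked base at all. Every one of the 500 had a footprint in all 3 libraries, beside 82.1% of the shared regions, and 0 had no footprint in any library, beside 1.82%. Members held a median of 6 footprints in each library, from 1 to 15 in replicate 1, 1 to 18 in replicate 2 and 1 to 16 in replicate 4, against shared medians of 3, 2 and 3. At ranks 501 to 1000 all 500 also had a footprint in every library, and the median was 6 in each. Footprints were called from the same cleavage as the peaks, so a tall region has more cuts in which one can be found. Together the criteria left 443 promoters (88.6%) with a footprint in all libraries and under 50% masking, beside 34.2% of shared regions, and 0 masked regions away from promoters with no footprint, beside 0.0356%.

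Copy number in the reference divided the members where masking and footprints did not. A region was called multi-copy where at least 50% of its words of 32 bases occurred elsewhere in the genome on either strand. There were 16 such members (3.2%), beside 1.46% of all shared regions and 4 of 500 (0.8%) at ranks 501 to 1000. Of the 16, 13 were under 50% masked, 13 lay away from coding promoters, and all had a footprint in every library. They were gathered at the top: 10 of the first 13 ranks and 14 of the first 25 were multi-copy, against 0 of ranks 26 to 100, 1 of ranks 101 to 250 and 1 of ranks 251 to 500. At the other end, 450 members had no word found elsewhere. Regions under the 50% limit are called single-copy, which does not mean that they are unique. Of the single-copy members, 33 aligned to other places over at least 60 bp, and 25 of the 33 were promoters.

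**Figure D2:**
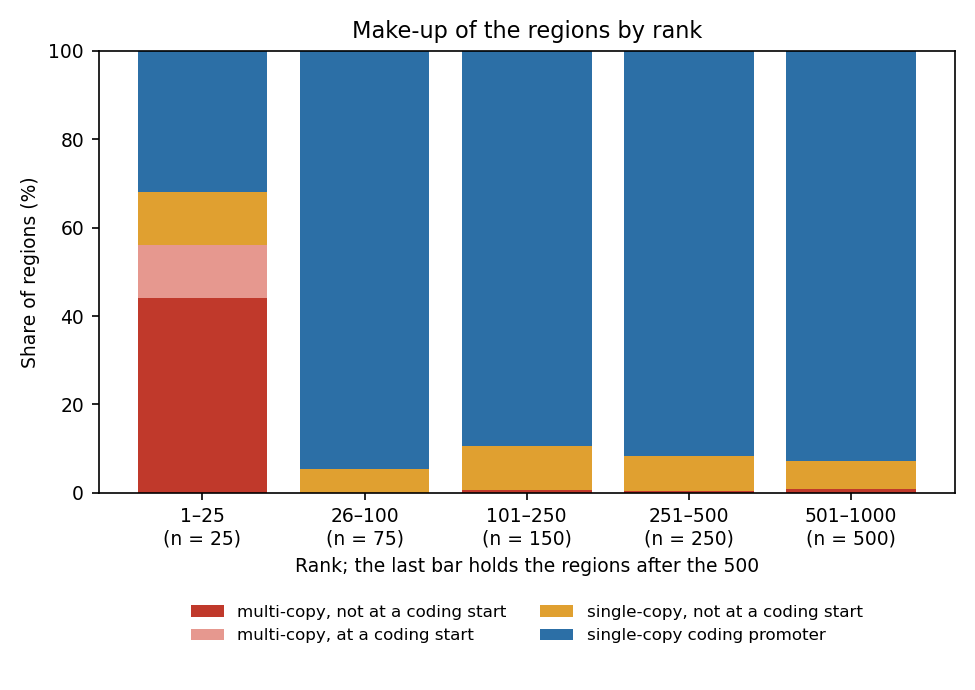
Share of regions (%) in 4 classes by rank, for the 500 in 4 bins and for ranks 501 to 1000. Multi-copy regions were 14 of the first 25 and at most 1 in each later bin of the 500, while single-copy coding promoters filled 71 of ranks 26 to 100.

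The tallest region of all lay in an annotated ribosomal RNA pseudogene. At chr17:39846781-39846900 (mm10) heights were 112.7, 88.8 and 115.3 in replicates 1, 2 and 4, and RefSeq places Rn18s-rs5, a pseudogene named for the small-subunit ribosomal RNA, over it. GENCODE lists the overlapping CT010467.1 as ribosomal RNA. No base was soft-masked and all words occurred elsewhere, yet the median word had only 2 copies in the reference. Ribosomal RNA genes are known to stand in long arrays of many copies in the mouse genome. The reference holds few of those copies, and how many reads came from copies it lacks was not tested.

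Several other members of the top group, scattered over the genome, shared sequence with one another. Ranks 3, 5, 9 and 17 lay on chromosomes 9, 6, 16 and 12 and were joined by partial alignments, rank 9 through rank 3 alone. Ranks 5 and 17 aligned over 168 bp at 99.4% identity. The stretches printed above for ranks 5 and 17 differ at 1 of 120 bases. Ranks 6 and 7, on chromosomes 3 and 13, overlapped in the same way. At chr14:19277765-19279289 sequences like those of ranks 20, 6, 7, 17, 5 and 3 were found in that order along the chromosome, at 81.4% to 91.8% identity. From general knowledge the stretches printed for ranks 5, 17 and 20 resemble large-subunit ribosomal RNA, a likeness that was not tested. The files name none of these regions as such.

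The heights of these regions and of ranks 4 and 12 follow by rank. Ranks 4 and 12 were not joined to another member by an alignment. Rank 3, wholly in the 3′ untranslated region of Lars2, the mitochondrial leucyl-tRNA synthetase, had heights of 54.2, 45.6 and 58.3. Rank 4, in an intron of Zc3h7a at the annotated microRNA Gm23935, had 49.3, 41.6 and 64.5. Rank 5 had 44.3, 39.2 and 51.3 and rank 6 had 49.7, 38.8 and 46.7, both intergenic. Rank 7, in an intron of the cytokine receptor gene Il31ra, had 36.8, 26.96 and 35.2. Ranks 9, 17 and 20, in introns of Kpna1, Gphn and the overlapping Cmss1 and Filip1l, had scores of 23.98, 16.8 and 16.3. Rank 12, in an intron of Jarid2, fell short of the multi-copy limit with 31.8% of its words found elsewhere, but aligned to 16 other places at up to 98.5% identity. Its heights were 19.2, 18.4 and 22.8.

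Ranks 8, 10 and 13 lay within one tandem array at the start of chromosome 9. They were the only members at least 50% soft-masked, at 97.5%, 100% and 100%, and the median word had 80, 57 and 57 copies. Rank 8 aligned to 895 other places, 299 of them in chr9:3000003-3038419, where its alignments lay most often 109 bp apart (104 times). For ranks 10 and 13 the commonest spacing was 234 bp, the repeat length that is textbook knowledge for mouse major satellite. Heights were 33.7, 24.95 and 24.2 at rank 8, 27.3, 23.8 and 21.7 at rank 10, and 21.4, 17.3 and 21.3 at rank 13. Replicate 4 was the lowest library at ranks 8 and 10, the reverse of what most members showed. Ranks 8 and 10 counted as promoters only through the predicted genes Gm10717 and Gm10718. Satellite arrays are largely absent from the assembly, and the part this plays in the heights was not tested.

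The remaining 4 multi-copy members were a promoter and a group on chromosome 8. Rank 16 was the promoter of Dynlt1b, a dynein light chain gene, with 4 alignments elsewhere that all lay on 1 chromosome, at heights of 24.4, 16.8 and 23.7, and 60.3% of its words occurred elsewhere. Ranks 21, 218 and 359 lay on chromosome 8 between 20122141 and 20550380 and aligned to one another, with alignments on 3, 2 and 3 chromosomes in all. Rank 21 overlapped the transcribed pseudogene 2610005L07Rik and had heights of 19.2, 16.2 and 27.2.

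Cleavage around the multi-copy members covered fewer bases than around the promoters. The authors deposited a false discovery rate of the cut rate along the genome, and the number of bases under 0.001 in the 1000 bp around each midpoint gave the extent of significant cleavage. In replicate 1 its median was 384 bases at multi-copy members, 849 at single-copy members away from coding starts and 906 at single-copy promoter members, against 316 over all shared regions. In replicate 2 the medians were 378, 746 and 838, against 243 over all shared regions, and in replicate 4 they were 422, 798 and 884, against 295. Heights in replicate 4 relative to the others were also lower at the multi-copy members. Replicate 4 over replicate 1 had a median of 1.01 at the 16 multi-copy members and 1.36 at the 442 single-copy promoter members, and replicate 4 over replicate 2 had medians of 1.29 and 1.58. Outside the 500 the replicate 4 over replicate 1 medians were 1.07 at the 475 multi-copy regions and 1.17 at the 32747 single-copy ones. The ranges of these ratios overlapped, since multi-copy members ran from 0.718 to 1.42 and promoter members from 0.844 to 1.93.

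**Figure D3:**
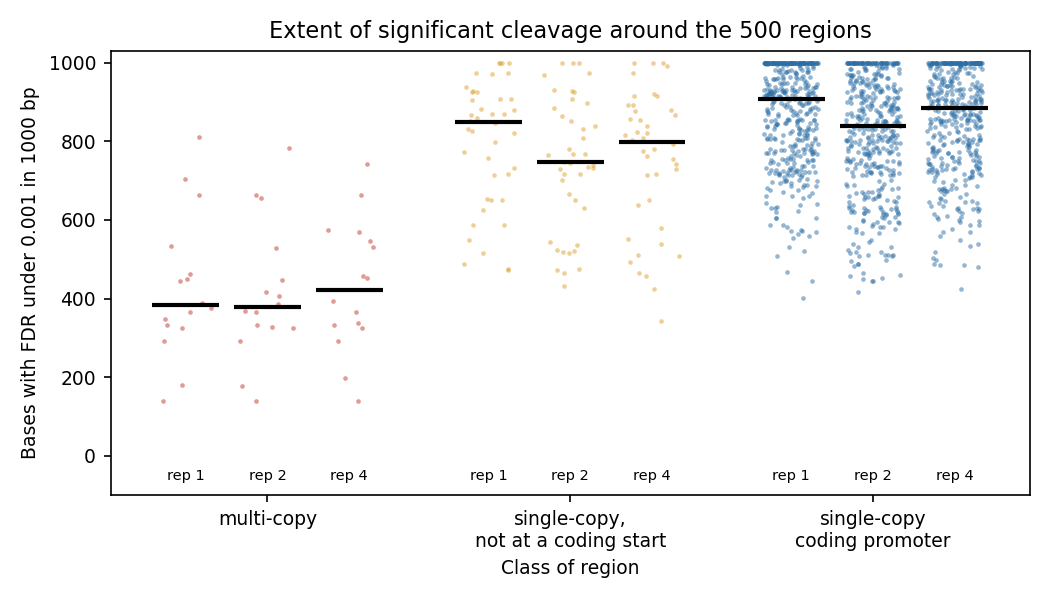
Bases with a false discovery rate under 0.001 in the 1000 bp around the midpoint of each of the 500 regions, by class and library, with each point a region and each bar a median. Multi-copy regions had medians of 384, 378 and 422 in replicates 1, 2 and 4, and single-copy promoters 906, 838 and 884.

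Rank 2 had no copy in the reference. At chr15:99735701-99736060, wholly inside the 3′ untranslated region of Cers5, a ceramide synthase gene, heights were 53.1, 55.4 and 49.9, none of its words occurred elsewhere and no alignment of 60 bp or more was found, though copies that the reference lacks could not be searched. Its observed to expected CpG ratio was 0.0916, the lowest of the 500, and only 9.44% of its bases were masked. Replicate 4 was the lowest library here. Rank 11, at chr13:58177601-58177840 inside the 3′ untranslated region of Ubqln1, a ubiquilin gene, had 21.3, 23.5 and 24.8, no word elsewhere and 37.0% GC. Both lay below the single-copy promoters in base composition, whose lowest GC was 50.5% and lowest CpG ratio 0.486.

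The 442 single-copy promoter members were CpG-rich. Over 200 bp around the midpoint they had a median of 67.0% GC and a CpG ratio of 0.891, against 64.5% and 0.808 over all 13646 shared single-copy promoter regions. An annotated start lay inside the region at 340 of them (76.9%), against 68.0% of shared promoters. The midpoint was no nearer to a start, at a median distance of 81.5 bp, against 78 bp, and a start lay within 100 bp of it at 57.7%, against 57.01%. At 77 (17.4%) at least 2 coding genes had a start within 1000 bp, against 11.5%, and at 75 (16.97%) starts on both strands did, against 10.8%. Heights at the promoter members had a median coefficient of variation of 24.4% over the 3 libraries, against 21.4% at all shared promoters.

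The tallest promoters belonged to genes of many functions. H2-D1, a classical MHC class I gene, came first, with heights of 19.4, 17.2 and 18.1 in replicates 1, 2 and 4, and 13.2% of its words occurred elsewhere. Chd2, a chromatin remodeller, had 17.97, 16.9 and 21.7, at a region in an annotated intron of the gene that also overlapped the antisense RNA Gm44686. Rad23b, whose product works in DNA repair and hands ubiquitinated proteins to the proteasome, had 17.2, 16.4 and 28.2, with replicate 4 well above the others. Sde2, a genome maintenance and splicing factor, had 18.3, 16.4 and 22.4. Add3, a membrane skeleton gene, had 20.5, 15.9 and 28.2, and Tle4, a corepressor, had 17.5, 15.5 and 24.9. Unlike the multi-copy regions at ranks 8 and 10, these had their highest height in replicate 4, except H2-D1, where replicate 1 was highest.

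The next promoters by score included genes of the nucleus and of mitochondria. Nup107, of the nuclear pore, had 17.7, 15.4 and 25.6, and Esrra, a nuclear receptor of mitochondrial gene control, had 17.9, 15.4 and 28.2. Hjurp, the chaperone of the centromeric histone, had 16.5, 15.3 and 24.2. Odf2, Gxylt1, Fzr1, Tpst2, Bnip3l, Cnot9 with Usp37, Osbpl8, Eif5a, Dnpep, Wdr18, Btg1 and Mplkip with Sugct completed the top 25 promoters, with scores from 14.9 at Odf2 to 14.1 at Mplkip. Among them Fzr1 activates the anaphase-promoting complex, Bnip3l acts in mitophagy and Btg1 restrains proliferation.

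Genes of rapid response were frequent among the promoters. Of 20698 autosomal coding genes, 10817 had some shared region within 1000 bp of a start, and 518 had one of the 500, or 2.5% of the 20698. Of 54 immediate-early genes 12 had one of the 500 (22.2%), and all 54 had some shared region there. Btg1 had heights of 16.3, 14.1 and 19.6. Jund, an AP-1 subunit, had 13.4, 12.96 and 18.5, and Dusp5, a phosphatase of MAP kinases, had 14.2, 11.6 and 21.3. Klf2, Klf6 and Mafk followed with scores of 11.2, 11.2 and 11.1, and Junb, Jun, Ppp1r15a, Per1, Zfp36 and Klf10 with 9.97 to 9.09. Of 19 NF-kappaB subunit and feedback genes, 2 were included. Tnfaip3, the A20 inhibitor of NF-kappaB, had 15.1, 13.1 and 18.9, and Nfkbie, an inhibitor of the same factor, had 12.8, 11.2 and 17.3.

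Genes of RNA and protein synthesis also stood above the 2.5% of all autosomal coding genes, as did most of the other lists given here. Every autosomal gene of the RNA-binding, translation factor, ribosomal protein and cytoskeleton lists had some shared region at a start, unlike autosomal coding genes at large. Of 50 RNA-binding and splicing factor genes 11 had a member (22%), led by Fubp1 at 18.5, 13.03 and 19.8 and Rbm39 at 15.3, 12.4 and 19.4, with Hnrnpc, Hnrnpa2b1, Hnrnpl and Hnrnpa3 next. Of 36 translation factor genes 6 did (16.7%), among them Eif5a at 16.2, 14.4 and 27.9 and Eif1 at 13.95, 12.98 and 23.5. Of 75 cytosolic ribosomal protein genes 8 did (10.7%), with scores of 10.8 at Rps28 and below. Of 38 cytoskeleton genes 6 did (15.8%), with Actb at 14.4, 12.4 and 20.3, and Myl12a and Myl12b sharing one region. Heat shock and stress genes gave 4 of 35 (11.4%), circadian genes 2 of 17 (11.8%) and lysosome genes 3 of 33 (9.09%). Ubiquitin and proteasome genes gave 2 of 44 (4.55%), and replication-independent histone genes 0 of 8.

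Genes that mark the monocyte had no member at a start. The count was 0 of 37, a number of genes too small to set apart from the 2.5% of all autosomal coding genes, so nothing is read from it. The tallest shared region at their starts had a median rank of 12336, against 5832 over all genes with one. Psap, a lysosomal saposin precursor, came nearest at rank 1647, while Csf1r, the receptor of the monocyte growth factor, stood at 19729 and Lyz2, lysozyme, at 17275. Among 47 myeloid transcription factors 7 were included (14.9%), namely Jund, Klf2, Klf6, Junb, Jun, Cebpa and Stat3. All but Cebpa and Stat3 were also counted above among the immediate-early genes, so the counts of the 2 lists are not separate results. Cebpa, a regulator of myeloid commitment, had heights of 10.8, 9.65 and 15.4. Each of the 8 lists of other lineages gave 0.

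**Figure D4:**
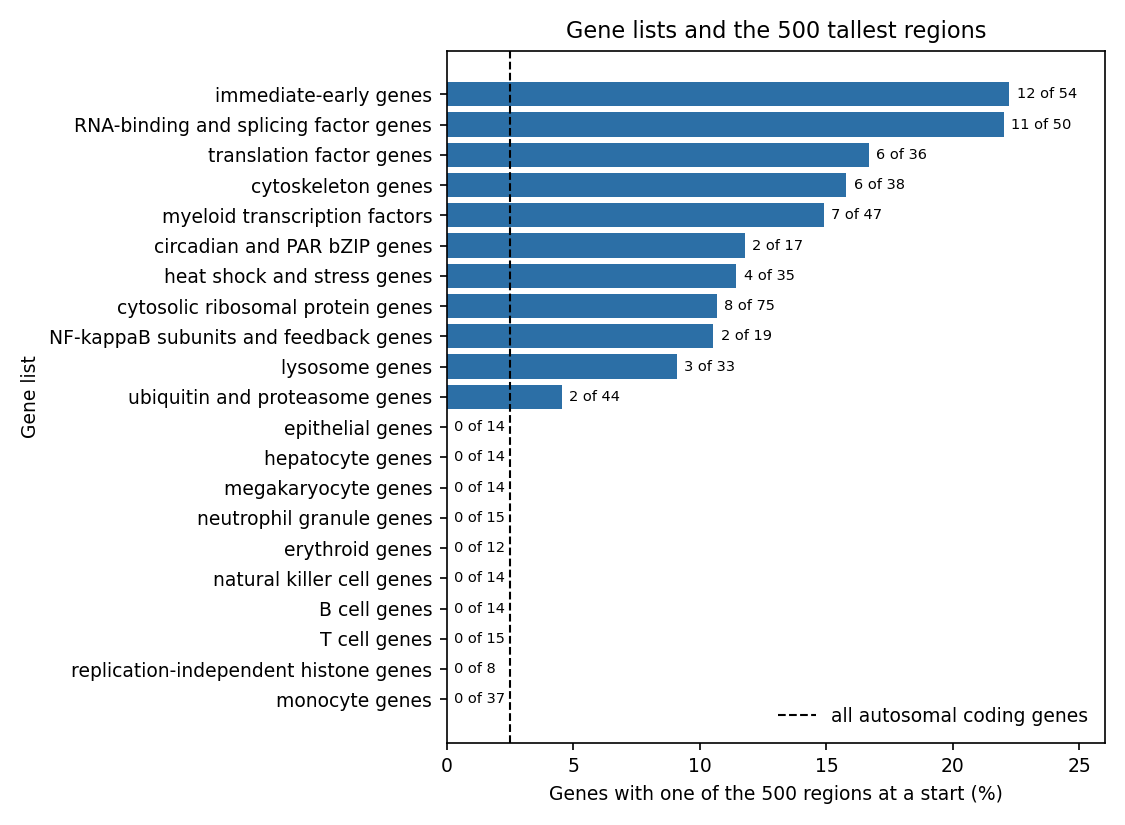
Share of the autosomal coding genes of each list (%) that had one of the 500 regions within 1000 bp of a start, with the count beside each bar. The dashed line is the 2.5% of all autosomal coding genes, and immediate-early genes (12 of 54) and RNA-binding and splicing factor genes (11 of 50) stood highest.

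Several promoter motifs were found more often at promoter members than at shared promoters. Motifs were searched on both strands of the 200 bp around each midpoint, and a match is a description of the letters alone. CCCCGCCC, the SP/KLF box, was found at 48.2% of promoter members, against 25.8% of all shared promoters. CCAATNA, the NFY box, was found at 21.04%, against 12.5%. CACGTG was found at 13.3%, against 8.25%, GCATGCGC of NRF1 at 9.28%, against 4.32%, and TGACGTCA, the cyclic AMP response element, at 7.01%, against 2.93%. CTCGCGAG, known for BANP and ZBTB33, had the widest ratio, at 6.11% against 1.63%. Other promoter motifs went the other way, with AAGATGGC of YY1 at 2.71%, against 3.72%, ACTACAA of ZNF143 at 1.36%, against 2.67%, and the ETS motif CCGGAAGT at 5.43%, against 6.21%. At promoters of ranks 501 to 1000 YY1 stood at 2.59% and ZNF143 at 1.94%, but ETS stood at 8.19%, above its share of all shared promoters.

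Motifs of 3 myeloid factors had lower shares at the members before base composition was considered. GAGGAAGT of PU.1 was found at 1.81% of promoter members, against 3.33% of all shared promoters. TTGCNNAA of C/EBP was found at 3.62%, against 5.83%, and GAAANNGAA of IRF at 0.905%, against 3.81%. The member shares rest on only 8, 16 and 4 regions. The ETS motif shares GGAAGT with that of PU.1. The other motifs searched were TGTGGTT of RUNX, TGANTCA of AP-1, TTTCCCGC of E2F and TATAAA, with CTCF and the CArG box by name, and each was found at under 3% of the promoter members. Over all 33722 shared windows SP/KLF was found at 12.7%, CACGTG at 6.42% and PU.1 at 6.48%.

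Base composition moves with several of these motifs. Within a band of 62.0% to 72.0% GC, SP/KLF was found at 49.0% of 310 promoter members, against 29.7% of 5878 other shared promoters, CTCGCGAG at 6.77%, against 1.89%, the cyclic AMP response element at 7.42%, against 3.47%, and NFY at 19.7%, against 11.6%. PU.1 was nearly level in this band, at 2.26%, against 2.36%, while C/EBP was found at 2.58%, against 3.62%, and IRF at 0.645%, against 2.65%. Promoters at ranks 501 to 1000 had SP/KLF at 42.5%, NFY at 25.2%, NRF1 at 9.48%, the cyclic AMP response element at 6.68% and CTCGCGAG at 3.02%. The shares of NFY and NRF1 were thus as high or higher below the threshold.

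**Figure D5:**
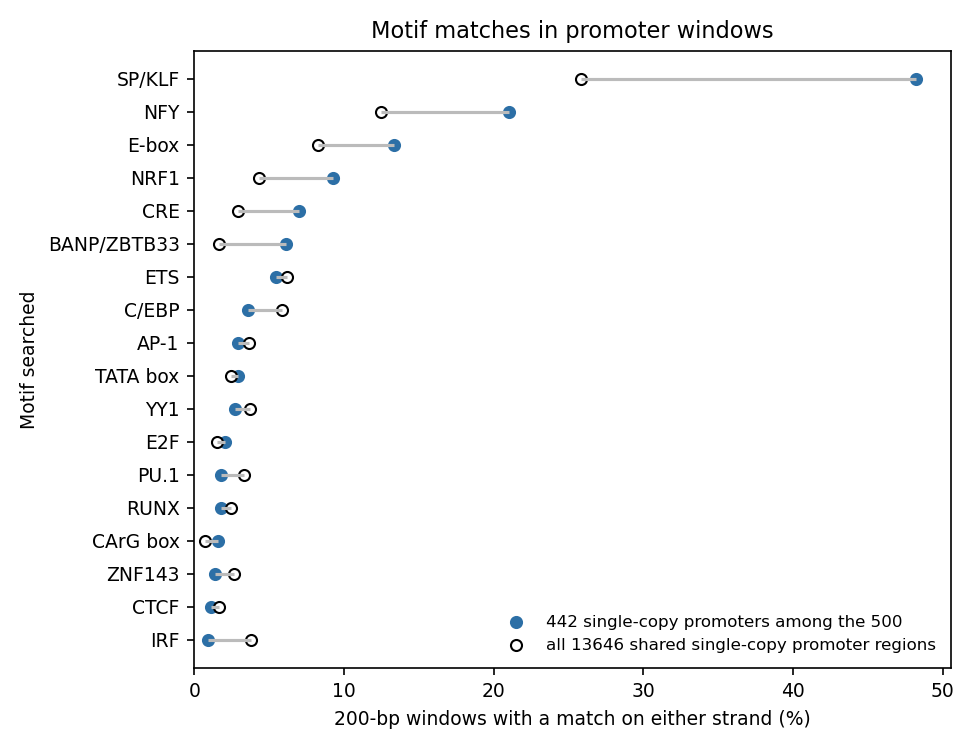
Share of 200-bp windows (%) with a motif match on either strand, for the 442 single-copy promoters among the 500 (filled) and all 13646 shared single-copy promoter regions (open). SP/KLF stood at 48.2% against 25.8%, and NFY at 21.04% against 12.5%.

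Footprints lay over some motifs at nearly every match. In the promoter members 32 of 32 matches of TGACGTCA touched a footprint in all 3 libraries, as did 56 of 58 of GCATGCGC and 259 of 278 of CCCCGCCC. Of stretches of 8 bp taken at regular steps across the same windows, 45.2% did. Matches of CCAATNA did at 29 of 110, or 26.4%, and of CTCGCGAG at 17 of 28, or 60.7%. In other shared promoters the shares were 84.4%, 87.6% and 60.9% for the first 3 motifs, 14.3% for CCAATNA and 54.2% for CTCGCGAG, over a level of 15.8% for stretches of 8 bp. The Chd2 sequence printed above shows such a case, with TGACGTCA inside a capital stretch.

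Transcription units of RNA polymerase III were found among the rest. RefSeq placed a tRNA gene within 100 bp of 10 members (2.0%), beside 0.569% of shared regions and 2 of 500 (0.4%) at ranks 501 to 1000. Of the 10, 5 lay away from coding promoters, namely n-TNgtt14 at rank 153, n-TPagg4 at 346, n-THgtg3 at 352, n-TWcca2 at 395 and n-TTcgt5 at 434. The other 5 counted as coding promoters. One of these, rank 22, lay 398 bp from the nearest coding start, that of Ctnna3, but overlapped n-TStga3, and had heights of 20.2, 16.1 and 26.6. Polr3e, which encodes a subunit of RNA polymerase III, had 16.1, 13.6 and 21.4 at its own promoter, in a region that also overlapped n-TLaag4.

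Footprints touched an internal promoter element in most of these genes. The B box, the site by which the polymerase III factor TFIIIC binds inside a tRNA gene, was searched as GTTCNANNC on the strand of the gene. It was found in 10 of 10 tRNA genes at members, against 94.6% of those at other shared regions and 91.7% of all 386 autosomal tRNA genes. A footprint touched it in all 3 libraries at 9 of the 10, against 80% of the boxes at other shared regions and 43.2% of those in all autosomal tRNA genes. Other stretches of the same genes were not measured. Both tRNA sequences printed above show the capitals over this part. Rank 41, at heights of 15.1, 13.8 and 20.2, overlapped Rn7s2, an RNA of the signal recognition particle, which is also known as a polymerase III transcript. It aligned to 134 other places at up to 100% identity, and the 5 members at tRNA genes away from coding promoters aligned to between 1 and 18, although none of these 6 reached the multi-copy limit. Whether such copies add to their heights was not tested.

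The other single-copy members away from coding starts looked like promoters in composition. There were 42 in all, with a median of 67.5% GC and a CpG ratio of 0.837, against 52.0% and 0.272 at all shared single-copy regions away from coding starts. Beside the 5 at tRNA genes, 16 had an end or start of a long non-coding RNA within 1000 bp (38.1% of the 42), beside 9.37% of the 19585 shared single-copy regions away from coding starts and 8 of 32 at ranks 501 to 1000. Rank 70, at Gm38882 and Gm38883, had 14.4, 12.6 and 22.6, and rank 71, at D130051D11Rik, had 14.8, 12.6 and 21.7. Snhg8, a host of small nucleolar RNA, and Mir22hg, the host of a microRNA, were also among them, with scores of 10.8 and 9.18. Others lay inside coding genes a little beyond the promoter limit. In Mnt, a MYC antagonist, the distance to the nearest start was 1041 bp and heights were 13.02, 11.7 and 17.8, in the circadian repressor Nr1d1 it was 1173 bp with 11.9, 10.3 and 17.98, and in Mxi1 it was 1155 bp with 12.1, 9.96 and 16.6. Rank 93, 76335 bp upstream of Chd2, had 12.2, 12.1 and 17.1, and rank 124, 38966 bp upstream of Ptma, had 12.9, 11.4 and 17.04, with no end of a long non-coding RNA within 1000 bp of either.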

How the data were processed

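DNase-seq peaks, footprints and cut-rate tracks of 3 monocyte libraries were used as deposited, in 1 group. Per the file headers the files of each library were derived from its own filtered alignment to mm10; how reads were aligned and how peaks and footprints were called is not stated in the labels or headers. The authors gave each peak a height in column 7, a signal whose scale is not stated. The deposited cut-rate track gives a false discovery rate (a p-value unit) for bases under 0.05. Footprints, which the authors gave with a constant value of 0.01, were used by position. Reads of both parental strains were set against one reference, and the effect was not tested.

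Peaks were merged by 1 bp overlap with Python 3.11.15, and soft-masking, words of 32 bases and sequences were read from GRCm38.p6. Alignments of at least 60 bp and 80% identity were made with blastn 2.17.0. Genes came from GENCODE M21 and RefSeq on that build. No test was run. The regions and the gene and motif lists were chosen with earlier results of these data known. Genes named were the 25 promoters and 20 other members with the highest score, and up to 6 of each list; tRNA genes, Polr3e, Snhg8, Mir22hg, Nr1d1, Mxi1 and the remaining members of lists were named after their values were seen. The merging and the word count were checked on simulated data.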

Additional observations from a re-analysis of the deposited data

Results flagged for a closer look

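The choice of the 500 left out the sex chromosomes. Of 705 shared regions of chromosome X, 5 stood as tall as the autosomal ones, and of 14 on chromosome Y, 0 did. All 5 lay between X:169991141 and X:170020240, in or near Mid1 and the predicted gene Gm21887, and 100% of their words of 32 bases occurred elsewhere in the reference. Which chromosomes held those other copies was not recorded. The tallest had heights of 26.9, 25.3 and 33.8 in replicates 1, 2 and 4, and the lowest of the 5 had 11.96, 11.4 and 14.7. Mid1 is known to span the boundary of the pseudoautosomal region in C57BL/6J, one of the parental strains.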

How the results depend on the processing

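Of 74 recomputed counts, 70 stayed within 1.5 times the reported one. The 4 that moved were the repeat-dense members, 9 in place of 3 at a soft-masked limit of 25%; the multi-copy members, 32 in place of 16 where 10% of the words sufficed and 7 where 90% were needed; and the members with no footprint, 1 in place of 0 where a footprint had to lie wholly inside the region. Each follows from the limit itself. The number of members kept was 499 without replicate 1, 414 without replicate 2 and 499 without replicate 4, and promoters then numbered 444 to 450. Replicate 2 set the score at 487 of the 500, so leaving out replicate 1 or 4 could change little. Those 2 settings say little about stability. No paired analysis was possible because there is 1 group. Depth is unknown, so no interval could be set on a height.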

Other observations

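The 8 replication-independent histone genes all stood below the threshold, too few to set apart from the 2.5% of all autosomal coding genes. The tallest promoter regions of these genes had a median rank of 3169.5, against 5832 over all genes with one. Nearest to the threshold were H2afv, at rank 551, and H3f3b, which encodes the histone variant H3.3, at rank 941. In other lineages the tallest shared promoter regions were those of Nfe2, a megakaryocyte factor, at rank 4730, Tjp3 of tight junctions at 6278 and Tfrc, the transferrin receptor, at 6969.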
